A study of Arabidopsis thaliana with 24 samples.

Results

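The afternoon of the jaz4-1 rosette was followed with 6 of the 24 samples of the series: the 3 replicate libraries of jaz4-1 cut at ZT12 and the 3 cut at ZT6. ZT, zeitgeber time, counts hours from lights-on, so that ZT6 was midday and ZT12 was dusk under the 12 h photoperiod used. All groups were Arabidopsis thaliana of the Columbia background. The line jaz4-1 (SALK_141628C) is a T-DNA insertion line of JAZ4, it is a single insertion allele, and Col-0 (CS60000) is its wild type. Plants of both lines grew on soil at 22 °C, no treatment was applied, and whole rosettes were cut at 3 weeks of age. Each library came from a pool of 6 rosettes described as a separate biological replicate, so that differences among plants within a pool are not seen. Values are normalised reads, which are read counts per gene divided by 1 scaling factor per library computed over all 24 libraries. Of the 24503 genes in the table, 19614 had enough reads to be tested. The members of the comparison were set by the labels alone, and the change was described across all of these genes. Because whole rosettes were used, fewer cells of a type and less RNA per cell cannot be told apart.

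The plant circadian clock is a network of transcription factors that repress one another in sequence through the day. Morning MYB factors of the CCA1, LHY and REVEILLE family are followed by pseudo-response regulators from morning to evening and then by the evening complex of ELF3, ELF4 and LUX. Clock and light together set when leaves express photosynthesis, growth, starch and stress genes. JAZ proteins repress the transcription factors that carry out the jasmonate response, and jasmonate leads to their destruction.

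The 6 libraries held 17340311 to 22210426 reads in genes, against 16832226 to 22644745 over the whole series. JAZ4 itself (AT1G48500) had 4, 0 and 8 reads at ZT6 and 2, 2 and 3 at ZT12 in jaz4-1. The Col-0 libraries of the same times held only 4 to 23 JAZ4 reads, so that its level could not check the labels. Marker levels were those of leaf: the 10 leaf markers summed to 54975 to 90668 CPM (counts per megaread) in the 6 libraries, the 12 root markers to 0.231 to 1.61 and the 10 floral markers to 0.98 to 2.64. Of the root markers 6 had no row in the table and 1 passed the filter on low counts. The share of reads from chloroplast genes was 0.0243% to 0.316% and did not separate the times (exact permutation test, two-sided p = 0.2; 3 against 3 cannot go below 0.1).

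A pair of the 6 libraries stood apart from their own replicates. ZT6 replicate 2 had reads for 19151 genes, against 20884 and 21274 in the other ZT6 libraries, and 688 tested genes lay at least 4-fold below both of its replicates, against 92 and 41 in those. ZT12 replicate 3 had 370 tested genes at least 4-fold above both of its replicates, against 21 and 9 in the other ZT12 libraries. VSP2, a vegetative storage protein induced by jasmonate, stood at 591, 968 and 19678 normalised reads in ZT12 replicates 1 to 3. TAT3, a tyrosine aminotransferase induced by jasmonate, stood at 7.54, 3.37 and 1452.

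Between midday and dusk most morning clock genes and most light-harvesting genes fell in jaz4-1, and most evening clock genes rose. Of 19614 genes tested, 1620 (8.26%) rose and 2097 (10.7%) fell at an adjusted p under 0.05 (limma on log2(normalised reads + 1), Benjamini-Hochberg over all genes tested). Falls of at least 4-fold numbered 317 and rises of that size 178. At least 16-fold, 47 genes fell and 20 rose. The median log2 fold change over all genes tested was 0.05. For 34.8% of genes tested the 3 ZT12 libraries lay wholly above or wholly below the 3 ZT6 libraries.

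These counts depend on the scaling across times. Scaled by library totals, an alternative added after seeing the data, 6038 genes rose and 1181 fell, and the values as deposited gave 7050 and 1174. Both moved the median of all genes up by 0.36 on the log2 scale, so that small changes are relative to the scaling. Without ZT6 replicate 2, 1064 genes rose and 1685 fell. Without ZT12 replicate 3, 1229 rose and 2011 fell.

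**Figure D1:**
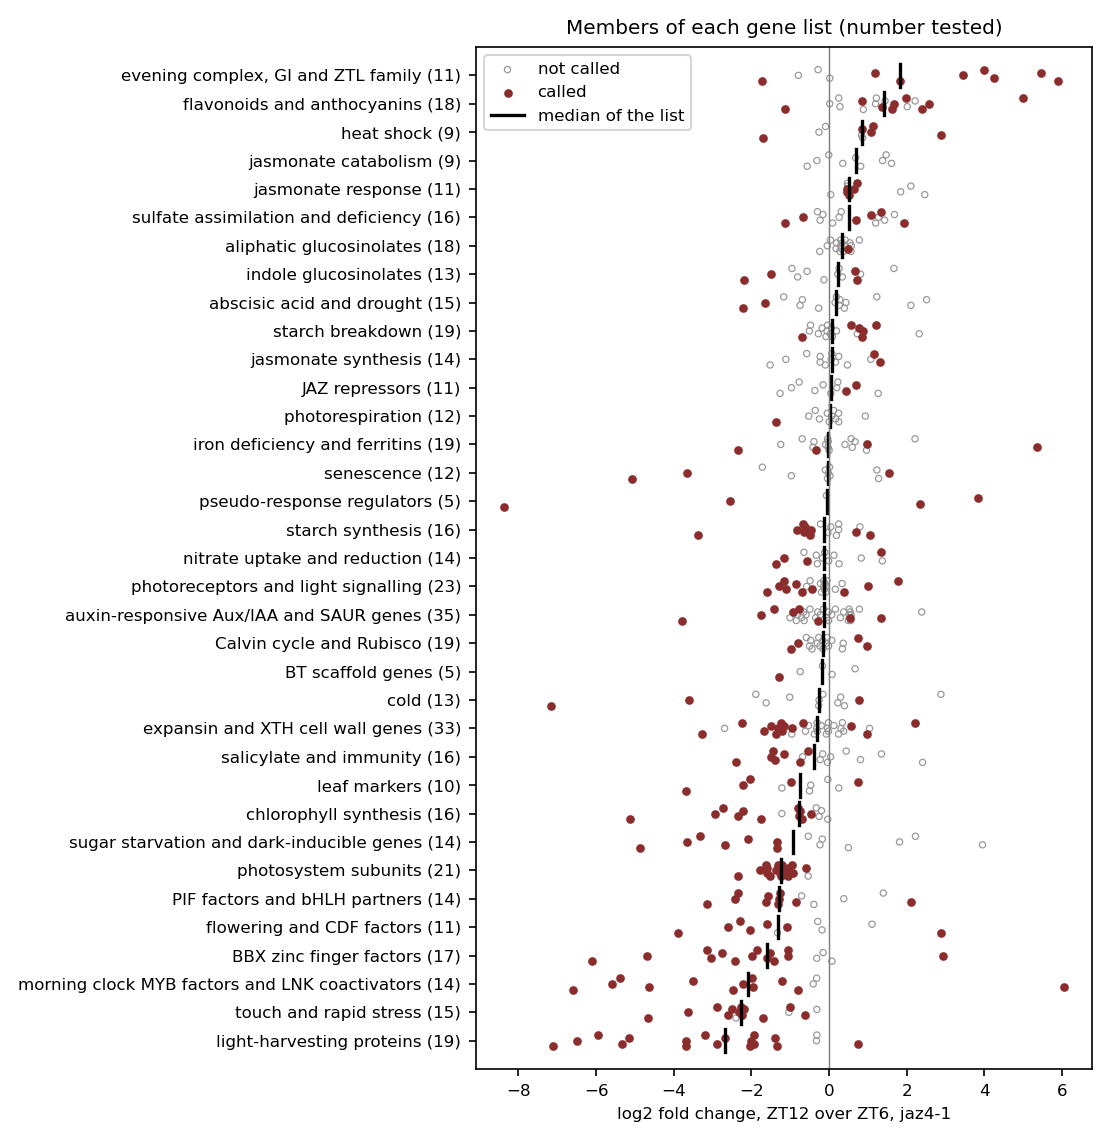
Each row is a gene list with the number of its members tested, and each point is the log2 fold change of 1 member between ZT12 and ZT6 in jaz4-1 (horizontal axis). Filled points passed an adjusted p under 0.05, open points did not, and the black bar is the median of the list. The medians ran from -2.68 for light-harvesting proteins to 1.84 for the evening complex list.

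The morning clock genes were low at dusk. Among the MYB factors and their LNK coactivators, 1 of 14 tested members rose and 11 fell, with a median log2 fold change of -2.10. CCA1 (AT2G46830), the MYB repressor that peaks at dawn, had 1242, 1134 and 842 normalised reads at ZT6 and 18, 15.1 and 3.51 at ZT12 (log2 fold change -6.58 ± 0.44, adjusted p = 2.11e-09). Its partner LHY (AT1G01060) was already low at midday, at 76.9, 108 and 66.5 at ZT6 and 15.1, 16 and 20.2 at ZT12 (log2 fold change -2.21 ± 0.21, adjusted p = 5.44e-08). RVE8, an activator of evening genes, went from 187, 155 and 134 to 16.8, 9.26 and 14.1 (log2 fold change -3.50 ± 0.22, adjusted p = 5.71e-11). The change of CCA1 was -5.93 without ZT12 replicate 3. In each of these 3 genes every ZT12 library lay below every ZT6 library.

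All 4 LNK coactivators, which work with RVE8, fell, with log2 fold changes of -5.58 for LNK4, -5.37 for LNK3, -4.64 for LNK2 and -2.47 for LNK1. LNK2 had 5594, 3843 and 3993 normalised reads at ZT6 and 215, 179 and 142 at ZT12. RVE1, RVE3, RVE4 and RVE7 fell less, with log2 fold changes of -1.21, -1.98, -0.79 and -1.97. The call for RVE3 was lost in 9 of 16 alternatives, among them library-total scaling and the loss of any 1 library other than ZT6 replicate 3. RVE5 (-0.41, adjusted p = 0.0598) and RVE6 (-0.32, adjusted p = 0.262) did not pass. RVE2 (AT5G37260), a single-MYB member of the same family, was the exception: it had 62.0, 37 and 46.2 normalised reads at ZT6 and 3139, 3393 and 3100 at ZT12 (log2 fold change 6.05 ± 0.24, adjusted p = 7.76e-14).

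Pseudo-response regulators are repressors that follow one another from morning to evening, and they split by that order. PRR9 (AT2G46790), the earliest, had 953, 508 and 378 normalised reads at ZT6 and 1.68, 0 and 0.878 at ZT12, which is 1470 reads in all against 3. The ratio of these totals, scaled for depth, was 687-fold, with a 95% interval from 235 to 3337 for counting error only. PRR7 had 5920.1, 4410.3 and 4617 normalised reads at ZT6 and 925, 902 and 721 at ZT12 (log2 fold change -2.55 ± 0.49, adjusted p = 0.000706). PRR5 did not pass, at 620.3, 551 and 581 at ZT6 and 655, 613 and 433 at ZT12 (log2 fold change -0.06 ± 0.41, adjusted p = 0.941), and its libraries overlapped. PRR3 rose from 152, 65.8 and 98.3 to 1413, 1558 and 1318 (log2 fold change 3.83 ± 0.61, adjusted p = 0.000104). TOC1 (PRR1, AT5G61380), which represses the morning genes, rose from 679.7, 586 and 706 to 3407, 3341 and 3207 (log2 fold change 2.34 ± 0.13, adjusted p = 1.56e-11).

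The evening genes were high at dusk: in the list of the evening complex, GI and the ZTL family, 7 of 11 tested members rose and 1 fell, with a median of 1.84. ELF4 (AT2G40080) rose from 59.3, 37 and 68.4 to 968, 1117 and 1011 normalised reads (log2 fold change 4.25 ± 0.46, adjusted p = 4.26e-07). Its partners in the complex, ELF3 and the MYB-like factor LUX, changed by 1.18 ± 0.13 and 1.84 ± 0.16. LUX (AT3G46640) had 481, 518 and 472 normalised reads at ZT6 and 1693, 1727 and 1843 at ZT12. BOA, the close relative of LUX, rose from 16.2, 27.4 and 13.5 to 314, 290.3 and 317 (log2 fold change 4.0 ± 0.40, adjusted p = 1.41e-07).

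FKF1 (AT1G68050), a blue-light F-box protein of photoperiodic flowering, had 125, 63.0 and 81.9 normalised reads at ZT6 and 1157, 988 and 782 at ZT12 (log2 fold change 3.46 ± 0.28, adjusted p = 4.3e-09). Its relatives ZTL (-0.28) and LKP2 (0.02) did not pass, nor did GI (log2 fold change -0.79 ± 0.73, adjusted p = 0.51). GI, a scaffold of FKF1 and ZTL, had 2139, 2369 and 1895 normalised reads at ZT6 and 1362, 1183 and 1152 at ZT12, and its groups did not overlap, but the SE is drawn from the spread in all 24 libraries. CHE, a TCP factor that represses CCA1, was the member that fell (log2 fold change -1.72 ± 0.14, adjusted p = 9.4e-09). COR27 (AT5G42900) and COR28, small nuclear proteins of the clock that respond to cold and blue light, rose by 5.89 ± 0.27 and 5.47 ± 0.90, the latter 4.69 without ZT6 replicate 2. COR27 had 18.9, 12.3 and 18.3 normalised reads at ZT6 and 990, 1143 and 945 at ZT12.

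**Figure D2:**
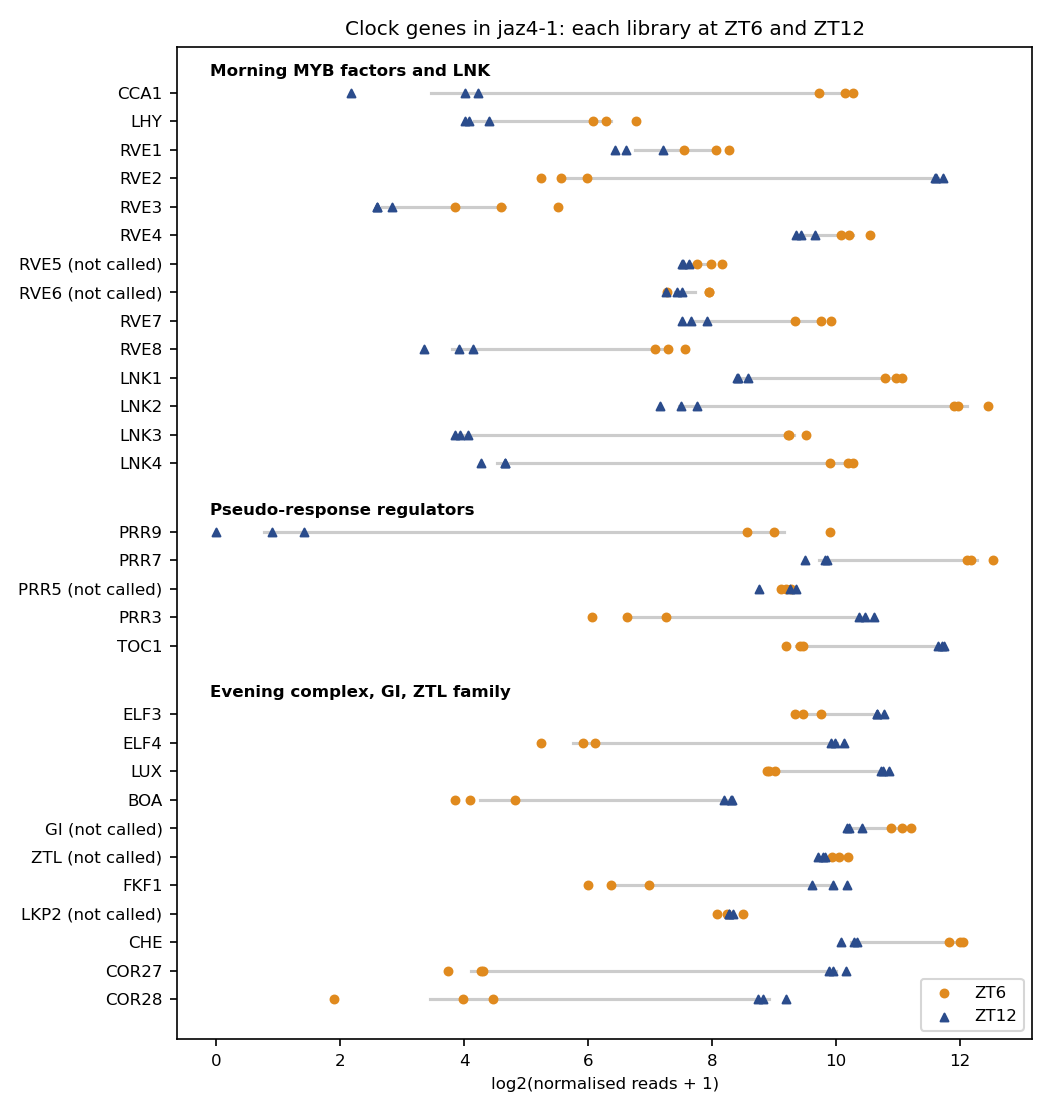
Each row is a clock gene, and each symbol is 1 jaz4-1 library at ZT6 (orange circles) or ZT12 (blue triangles) on a log2(normalised reads + 1) axis. Grey lines join the means of the 3 libraries. In the morning list 13 genes have a lower mean at ZT12, 11 of them called, and RVE2 a higher one. For ELF4, BOA, FKF1, COR27 and COR28 the ZT12 symbols lie far to the right of the ZT6 symbols.

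The named gene with the largest fitted rise was JMJD5 (AT3G20810, also called JMJ30), on the log2(normalised reads + 1) scale. It is a histone demethylase of the JmjC family that is tied to the clock, and it had 32.4, 13.7 and 27 normalised reads at ZT6 and 4593, 4159 and 3493 at ZT12 (log2 fold change 7.4 ± 0.28, adjusted p = 3.39e-14). COL9, a CONSTANS-like B-box factor that delays flowering, rose from 83.6, 87.7 and 122 to 2094, 2378 and 2119 (log2 fold change 4.49 ± 0.16, adjusted p = 3.27e-15). In both, the lowest ZT12 library lay far above the highest ZT6 library.

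The evening element AAAATATCT is the promoter motif that CCA1, LHY and the REVEILLE factors bind in evening genes. The 250 bases before the annotated start of 3 called clock genes that hold it, TOC1, FKF1 and LUX, are shown because they let the motif be seen beside the rise of each gene. Sequences are from RefSeq, assembly TAIR10.1, read 5′ to 3′ toward the gene, with the evening element on either strand in capitals.
TOC1: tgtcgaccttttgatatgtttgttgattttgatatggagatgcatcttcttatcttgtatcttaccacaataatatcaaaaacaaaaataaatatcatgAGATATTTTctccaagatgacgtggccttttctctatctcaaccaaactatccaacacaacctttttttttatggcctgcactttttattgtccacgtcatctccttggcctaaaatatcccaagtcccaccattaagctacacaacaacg
FKF1: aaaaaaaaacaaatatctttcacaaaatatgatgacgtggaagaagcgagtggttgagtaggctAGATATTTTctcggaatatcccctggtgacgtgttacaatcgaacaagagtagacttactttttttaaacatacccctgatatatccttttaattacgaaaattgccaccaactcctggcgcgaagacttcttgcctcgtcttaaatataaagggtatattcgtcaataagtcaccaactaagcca
LUX: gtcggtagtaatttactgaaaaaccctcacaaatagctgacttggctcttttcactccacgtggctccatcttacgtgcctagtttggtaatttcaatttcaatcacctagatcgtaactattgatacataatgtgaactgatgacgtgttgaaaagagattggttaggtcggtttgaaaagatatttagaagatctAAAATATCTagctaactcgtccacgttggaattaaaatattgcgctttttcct
These windows were chr5:24674713-24674962, plus strand, for TOC1, chr1:25508389-25508638, plus strand, for FKF1 and chr3:17182792-17183041, plus strand, for LUX. Each held 1 copy, which began 151 bases before the start of TOC1, 186 before that of FKF1 and 53 before that of LUX.

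Over all genes tested that had such a window, 488 of 19491 (2.5%) held AAAATATCT on either strand. The share was 57 of 1620 (3.52%) among genes that rose and 66 of 2090 (3.16%) among genes that fell. Among genes that rose at least 4-fold it was 13 of 178 (7.3%), and among those that fell at least 4-fold 13 of 315 (4.13%). In the evening complex list it was 4 of 11 (36.4%), and in the morning list 1 of 14 (7.14%), which was RVE7. Of the pseudo-response regulators 2 of 5 (40%) held it, namely TOC1, which rose, and PRR5, which did not pass. The related CCA1-binding site AAAAATCT, which cannot overlap the evening element, was in 1311 of 19491 (6.73%) of all windows, 114 of 1620 (7.04%) of those of risen genes and 154 of 2090 (7.37%) of those of fallen genes. The G-box CACGTG, the site of many bHLH and bZIP factors, was in 1428 of 19491 (7.33%) of all windows. It was in 147 of 1620 (9.07%) of those of risen genes and 188 of 2090 (9.0%) of those of fallen genes. In the morning list 7 of 14 (50%) held it, among them RVE2, which rose. The I-box GATAAG was in 2410 of 19491 (12.4%) of all windows, 175 of 1620 (10.8%) of those of risen genes and 328 of 2090 (15.7%) of those of fallen genes. These shares are descriptions of letters in a window, with no test.

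Light-regulated transcription factors under the clock mostly fell. Of the BBX zinc finger factors, which act in light signalling, 1 of 17 tested members rose and 13 fell, with a median of -1.6. BBX16 had 849.6, 673 and 644 normalised reads at ZT6 and 6.71, 7.57 and 15.8 at ZT12 (log2 fold change -6.11 ± 0.58, adjusted p = 1.14e-07) and BBX28 1159.8, 928 and 973 at ZT6 and 58.7, 28.6 and 34.2 at ZT12 (log2 fold change -4.68 ± 0.42, adjusted p = 2.64e-08). BBX24 and BBX25, which restrain HY5, fell by 1.6 and 2.42 on the log2 scale. BBX20, a member at low counts, was the one that rose (log2 fold change 2.94 ± 0.73, adjusted p = 0.00655; 1.57 without ZT6 replicate 2).

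Among the phytochrome-interacting factors and their bHLH and other partners, 1 of 14 tested members rose and 9 fell, with a median of -1.28. PIF5, a growth-promoting factor that the clock restricts to part of the day, had 5335, 4904 and 4594 normalised reads at ZT6 and 473, 592 and 608 at ZT12 (log2 fold change -3.15 ± 0.16, adjusted p = 8.81e-13). PIF4, its close relative, changed by -2.43 ± 0.44, PIF7 by -1.57 ± 0.26 and PIF1 by -0.86 ± 0.15, whereas PIF3 did not pass (0.38, adjusted p = 0.331). HFR1, an atypical bHLH that restrains PIFs, fell from 87.7, 83.6 and 74.2 to 8.38, 18.5 and 22.0. PIL1, the member that rose (2.12), lost its call without ZT6 replicate 2 or ZT12 replicate 3 (adjusted p = 0.201 and 0.108).

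In the flowering list 1 of 11 tested members rose and 6 fell, with a median of -1.33. CDF1, a Dof repressor of CONSTANS that FKF1 degrades, had 1024, 902 and 833 normalised reads at ZT6 and 177, 184 and 196 at ZT12 (log2 fold change -2.30 ± 0.18, adjusted p = 4.82e-09). CO (CONSTANS), the activator of florigen, had 2.70, 0 and 7.71 normalised reads at ZT6 and 26, 20.2 and 21.1 at ZT12 (log2 fold change 2.87 ± 0.65, adjusted p = 0.00264), and changed by 2.04 without ZT6 replicate 2. TEM2 and RAV1, repressors of flowering, changed by -3.90 and -2.61, and SOC1, a floral integrator, by -1.61. Of photoreceptor and light-signalling genes, 3 of 23 tested members rose and 7 fell, counts that became 7 and 5 under library-total scaling. The red and far-red receptor PHYA fell by 0.84 and the blue-light receptors CRY1 and PHOT1 by 1.29 and 1.1, while CRY2 (-0.19), PHOT2 (-0.08) and PHYB (-0.06) did not pass. HY5, the bZIP factor that promotes photomorphogenesis, rose from 89.0, 63.0 and 99.2 to 290, 280.2 and 281 (log2 fold change 1.77 ± 0.16, adjusted p = 3.13e-08).

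Light-harvesting genes lost most of their share of the reads. The 19 tested members took 14.5, 12.5 and 13.1% of all reads in the 3 ZT6 libraries and 3.30, 3.20 and 2.54% in the 3 ZT12 libraries. The groups did not overlap (exact permutation test, two-sided p = 0.1, the smallest that 3 against 3 allow). Of these genes, 1 of 19 tested members rose and 16 fell, with a median of -2.68. LHCB2.3 (AT3G27690), an antenna protein of photosystem II, had 47736, 41053 and 38573 normalised reads at ZT6 and 357, 345 and 230.1 at ZT12 (log2 fold change -7.11 ± 0.17, adjusted p = 1.43e-18). LHCB2.1, LHCB2.2 and LHCB3 fell by 5.15, 5.32 and 3.70.

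The LHCB1 genes are near-identical copies, so that the split of reads among them is uncertain. LHCB1.4 changed by -6.48 and LHCB1.1 by -5.94, but LHCB1.2 and LHCB1.3 by -3.67 and -1.94. The photosystem I antenna genes LHCA1 to LHCA4 had log2 fold changes of -2.68, -1.40, -1.94 and -2.88. LHCA5 (-0.31) and LHCA6 (-0.32), which link photosystem I to the NDH complex, did not pass. LHCB4.3 was the only listed antenna gene that rose (log2 fold change 0.74 ± 0.24, adjusted p = 0.0349), a call lost without ZT6 replicate 2 or ZT12 replicate 3 (adjusted p = 0.0994 and 0.0544).

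Photosystem subunits moved together and less steeply. In this list 0 of 21 tested members rose and 20 fell, with a median of -1.23 and a range from -2.33 to -0.54. Their share of reads was 5.75, 5.32 and 5.31% at ZT6 and 3.19, 3.21 and 2.58% at ZT12. PSAD-2, a stromal subunit of photosystem I, had 36673, 30656 and 31365 normalised reads at ZT6 and 7330, 6849.7 and 5468 at ZT12 (log2 fold change -2.33 ± 0.19, adjusted p = 4.68e-09). PSBQ-2, of the oxygen-evolving complex, changed by -1.61 ± 0.15. Chlorophyll synthesis genes fell in part: 0 of 16 tested members rose and 11 fell, with a median of -0.77. HEMA1, the glutamyl-tRNA reductase at the entry of the pathway, had 27274, 29021 and 22406 normalised reads at ZT6 and 4208, 3892 and 3778 at ZT12 (log2 fold change -2.72 ± 0.15, adjusted p = 6.25e-12). PORA, a light-dependent protochlorophyllide reductase, changed by -5.12 ± 0.77. CAO, which makes chlorophyll b, fell by 2.93, and GUN5, a subunit of magnesium chelatase, by 2.23.

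In the Calvin cycle and Rubisco list, 2 of 19 tested members rose and 2 fell, beside 8.26% of all genes that rose and 10.7% that fell, with a median of -0.16. RCA, the activase of Rubisco, had 317669, 382376 and 271899 normalised reads at ZT6 and 175926, 167503 and 148916 at ZT12 (log2 fold change -0.97 ± 0.22, adjusted p = 0.00228). RBCS2B rose (log2 fold change 0.75 ± 0.22, adjusted p = 0.0186) but was not called without ZT6 replicate 2 (adjusted p = 0.0541), RBCS1A (-0.47) and RBCS3B (-0.50) did not pass, and reads of these near-identical small subunit genes may be split unevenly. Of the photorespiration genes, 0 of 12 tested members rose and 1 fell: CAT2, the leaf catalase, was the one called (log2 fold change -1.36 ± 0.26, adjusted p = 0.000615). Under library-total scaling the Calvin cycle list held 7 rises and 2 falls with a median of 0.20, and the photorespiration list 6 and 1 with a median of 0.40.

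**Figure D3:**
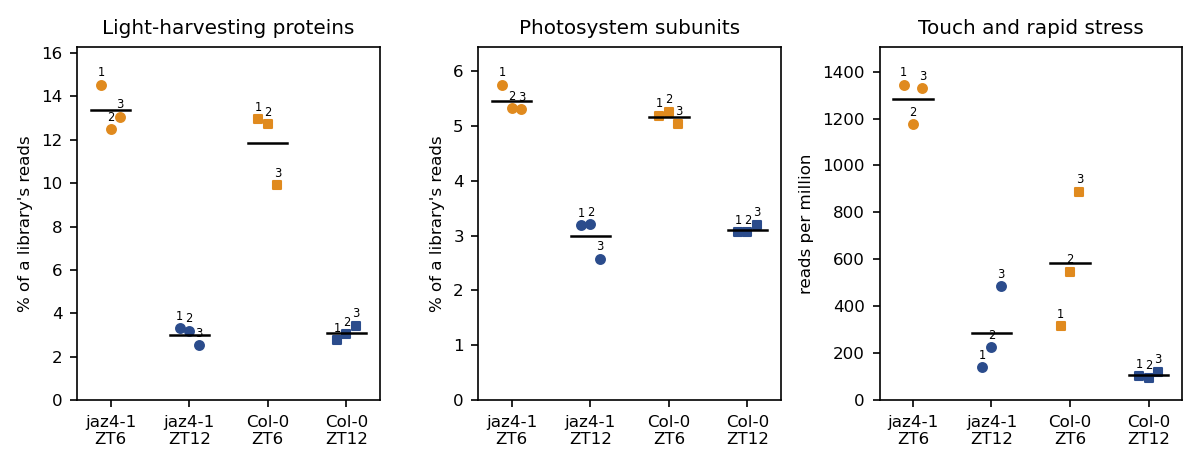
Points are single libraries, numbered by replicate, of jaz4-1 (circles) and Col-0 (squares) at ZT6 (orange) and ZT12 (blue), with a bar at the group mean. The left and middle panels give the share of a library's reads in light-harvesting and photosystem genes, and the right panel the CPM summed over touch and rapid-stress genes. In jaz4-1 the light-harvesting share was 12.5% or more at ZT6 and 3.30% or less at ZT12, and ZT12 replicate 3 was the highest of its group in the right panel.

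Starch synthesis and starch breakdown genes had different balances of calls, which moved with the scaling. Of all genes tested, 8.26% rose and 10.7% fell under the scaling used. In the synthesis list 2 of 16 tested members rose and 7 fell, and under library-total scaling 7 rose and 2 fell. GBSS1, the granule-bound starch synthase under direct clock control, had 1153, 1351 and 962 normalised reads at ZT6 and 83.0, 95.1 and 169 at ZT12 (log2 fold change -3.36 ± 0.53, adjusted p = 0.000144). SS2 and ISA1, a soluble synthase and a debranching enzyme, fell by 0.82 and 0.67, the latter not called under library-total scaling. The branching enzyme SBE2.1 rose by 0.69 ± 0.13. In the breakdown list 5 of 19 tested members rose and 1 fell, and under library-total scaling 12 rose and 0 fell. BAM3, the plastid beta-amylase of night-time degradation, had 6124, 5220 and 4932 normalised reads at ZT6 and 11058, 12925 and 13699 at ZT12 (log2 fold change 1.21 ± 0.21, adjusted p = 0.000174). PWD, SEX4 and ISA3, a glucan dikinase, a glucan phosphatase and a debranching enzyme, rose by 0.78, 0.86 and 0.88, while the dikinase GWD1 (0.03) and the maltose exporter MEX1 (0.09) did not pass.

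Of the genes known to rise when sugar is short, 0 of 14 tested members rose and 7 fell, with a median of -0.93. The shares over all genes tested were 8.26% that rose and 10.7% that fell. TPS11 and TPS8, members of the trehalose-phosphate synthase family that sugar represses, fell by 3.32 and 2.67. ASN1 (DIN6), an asparagine synthetase, had 289, 289 and 410.4 normalised reads at ZT6 and 4.19, 1.68 and 96.6 at ZT12 (log2 fold change -4.88 ± 1.2, adjusted p = 0.00646). Its change was -6.45 without ZT12 replicate 3. In ASN1, TPS8 and TPS11 the highest ZT12 value was that of replicate 3.

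Touch and rapid-stress genes were high at midday. Of 15 tested, 12 fell and 0 rose, with a median of -2.27, and their summed level was 1344, 1177 and 1329.9 CPM at ZT6 and 141, 225 and 486 at ZT12. TCH4, a wall-loosening xyloglucan enzyme induced by touch, had 10535, 10719.5 and 11679.8 normalised reads at ZT6 and 135, 368 and 1640.5 at ZT12 (log2 fold change -4.66 ± 0.59, adjusted p = 1.48e-05). SZF1, a zinc finger protein, had 6091, 5853 and 4984 at ZT6 and 413, 706 and 1541 at ZT12 (log2 fold change -2.87 ± 0.38, adjusted p = 1.76e-05), and WRKY33, a defence regulator, had 1630.4, 1173 and 994 at ZT6 and 133, 191 and 407 at ZT12 (log2 fold change -2.50 ± 0.37, adjusted p = 3.41e-05). In all 3 the ZT12 libraries differed several-fold among themselves, with replicate 3 the highest, and without it the change of TCH4 was -5.61. Without ZT12 replicate 3 the list held 13 falls and a median of -2.86.

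Some of the steepest falls outside the clock and antenna genes had the same shape. PHI-1, a phosphate-induced gene of rapid responses, had 3215, 2962 and 4205 normalised reads at ZT6 and 10.9, 45.4 and 384 at ZT12 (log2 fold change -5.84 ± 0.85, adjusted p = 5.03e-05). DREB26, an AP2 factor, had 1278, 1448 and 1447 at ZT6 and 4.19, 26.9 and 239.7 at ZT12 (log2 fold change -5.41 ± 0.87, adjusted p = 0.000145), and ACS11 and ACS8, which make the precursor of ethylene, changed by -5.48 and -5.20. Without ZT12 replicate 3 the changes were -7.19 for PHI-1, -6.85 for DREB26, -7.18 for ACS11 and -6.36 for ACS8. In a fit of only the 6 jaz4-1 libraries PHI-1, DREB26 and ACS11 were not called (adjusted p = 0.0609, 0.0878 and 0.0982). CIPK20, a calcium-regulated kinase, fell more evenly, from 2534, 3509 and 2085 to 23.5, 7.57 and 21.1 (log2 fold change -7.31 ± 0.46, adjusted p = 7.11e-11). CBF2, a cold-response activator gated by the clock, had 258, 248 and 225 normalised reads at ZT6 and 0, 0.841 and 1.76 at ZT12. That is 606 reads against 3, a depth-scaled ratio of 283-fold (95% counting interval 96.5 to 1378). DOG1 (AT5G45830), a seed dormancy gene whose locus number adjoins that of CIPK20 (AT5G45820), had 230 reads against 3 (108-fold, 36.3 to 525). GDPD6, a glycerophosphodiester phosphodiesterase, changed by -5.21, and by -6.18 without ZT12 replicate 3.

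Jasmonate genes gave 9 calls over 4 lists, all of them rises, and 4 were lost without ZT12 replicate 3. The calls lost without ZT6 replicate 2 were those of JAZ12, JAM2 and JAM3 (adjusted p = 0.11, 0.103 and 0.372). Under library-total scaling the rises numbered 3 among JAZ repressors, 5 in synthesis, 1 in catabolism and 8 in the response list. Of all genes tested, 8.26% rose. Of the JAZ repressors, 2 of 11 tested members rose and 0 fell, with a median of 0.05. JAZ2 had 388, 488 and 351 normalised reads at ZT6 and 487, 551 and 1068 at ZT12 (log2 fold change 0.70 ± 0.21, adjusted p = 0.02) and JAZ12 815, 632 and 893 at ZT6 and 963, 931 and 1273 at ZT12 (log2 fold change 0.44 ± 0.12, adjusted p = 0.0124). Without ZT12 replicate 3 neither passed, at 0.35 (adjusted p = 0.176) and 0.30 (adjusted p = 0.105). In that fit 0 members rose, 2 fell, JAZ3 and JAZ6, and the median was -0.51. JAZ10, a strongly induced repressor, had 17.5, 111 and 24.1 normalised reads at ZT6 and 27.7, 35.3 and 695 at ZT12 and did not pass (log2 fold change 1.27 ± 0.85, adjusted p = 0.339).

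Jasmonate synthesis and breakdown showed the same library. In synthesis 2 of 14 tested members rose and 0 fell: OPR3, a peroxisomal reductase (log2 fold change 1.15 ± 0.23, adjusted p = 0.000857), and LOX2, the lipoxygenase at the start of the pathway (log2 fold change 1.31 ± 0.41, adjusted p = 0.0315). LOX2 had 11533, 20851 and 9445 normalised reads at ZT6 and 21122, 24913 and 65589.6 at ZT12, and without replicate 3 its change was 0.80 (adjusted p = 0.182). The list without that library held 1 rise, OPR3, and 2 falls, of the lipoxygenase LOX4 and the ligase OPCL1. Of 9 tested catabolism genes 0 rose and 0 fell, with a median of 0.69 that became -0.86 without ZT12 replicate 3 and 1.8 without ZT6 replicate 2. JOX3, which hydroxylates jasmonate, had 1.35, 114 and 0 normalised reads at ZT6 and 0, 6.73 and 740.3 at ZT12: it was high in ZT6 replicate 2 and ZT12 replicate 3, and at or near 0 in the other 4 libraries.

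Among jasmonate response genes 5 of 11 tested members rose and 0 fell. The list held 3 rises without ZT6 replicate 2 and 4 without ZT12 replicate 3. The risers were all regulators, namely the activators MYC3 (log2 fold change 0.50 ± 0.12, adjusted p = 0.00487) and MYC4 (log2 fold change 0.71 ± 0.14, adjusted p = 0.000548), the adaptor NINJA (0.45) and the repressors JAM2 (0.64) and JAM3 (0.48). The storage protein genes VSP1 and VSP2 did not pass (2.47 and 1.84). VSP1 had 32.4, 126 and 49.1 normalised reads at ZT6 and 37.7, 108 and 8508 at ZT12. Of the salicylate and immunity list 0 of 16 tested members rose and 7 fell, with a median of -0.39. ICS1, an enzyme of salicylate synthesis, fell by 1.44 ± 0.22, its regulator CBP60G by 2.41 and the receptor NPR3 by 1.51. Scaled by library totals that list held 3 rises and 4 falls.

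Of the largest rises, PS2, IPS1 and PAP14 are known from phosphate starvation, for which no list was used, and in each ZT12 replicate 3 was the highest. PS2, a phosphatase induced by phosphate shortage, had 6.74, 0 and 9.63 normalised reads at ZT6 and 24.3, 68.2 and 611 at ZT12 (log2 fold change 4.56 ± 1.00, adjusted p = 0.00211). IPS1, a non-coding RNA of that response, had 0 reads at ZT6 and 0.838, 8.41 and 142 normalised reads at ZT12. PAP14, a purple acid phosphatase, had 0 reads at ZT6 and 1.68, 14.3 and 182 at ZT12. Against a floor of 3 reads over the 3 ZT6 libraries, IPS1 was at least 41.1-fold and PAP14 at least 53.7-fold higher. Without ZT12 replicate 3, IPS1 and PAP14 no longer passed (adjusted p = 0.187 and 0.0906) and PS2 stood at 3.27 (adjusted p = 0.0186). Without ZT6 replicate 2, IPS1 had an adjusted p of 0.0504 and PS2 a change of 3.50. DREB2C and XID, further named risers, did not have that shape, and without ZT6 replicate 2 their changes were 2.48 and 2.03. DREB2C, a heat- and drought-response factor, had 8.09, 0 and 12.5 normalised reads at ZT6 and 68.7, 59.7 and 54.4 at ZT12 (log2 fold change 3.63 ± 0.84, adjusted p = 0.00314), and XID, a myosin, 12.1, 0 and 23.1 at ZT6 and 67.1, 85.0 and 65.0 at ZT12 (log2 fold change 3.42 ± 0.72, adjusted p = 0.00135).

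Among flavonoid genes 8 of 18 tested members rose and 1 fell, with a median of 1.41. MYB111, an activator of flavonol synthesis, had 10.8, 0 and 12.5 normalised reads at ZT6 and 221, 172 and 133 at ZT12 (log2 fold change 4.99 ± 0.62, adjusted p = 5.11e-06; 3.77 without ZT6 replicate 2). FLS1, flavonol synthase, rose by 1.63 ± 0.23, 4CL3, a ligase of flavonoid precursors, by 1.68 ± 0.21 and TT4, chalcone synthase, by 1.38, a call lost without ZT12 replicate 3 (adjusted p = 0.123). PAL2, at the entry of phenylpropanoid synthesis, was the member that fell (-1.14). Anthocyanin enzymes DFR and LDOX did not pass, and their ZT12 libraries spread from 259 to 1501 and from 229.7 to 1087 normalised reads. The list held 4 rises without ZT12 replicate 3 and 5 without ZT6 replicate 2.

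Of the sulfate assimilation and deficiency genes 4 of 16 tested members rose and 2 fell, with a median of 0.50, and the counts were also 4 and 2 without either library that stood apart. Under library-total scaling they were 10 and 1. APR1 (AT4G04610), which reduces activated sulfate, had 1949, 1609.8 and 1751 normalised reads at ZT6 and 3119, 3705 and 4596 at ZT12 (log2 fold change 1.09 ± 0.13, adjusted p = 2.39e-06). APR3, a second reductase, and APS3, which activates sulfate, rose by 1.34 ± 0.23 and 0.69 ± 0.13. LSU2, a gene induced by low sulfur, had 386, 162 and 231 normalised reads at ZT6 and 838, 1026 and 955 at ZT12 (log2 fold change 1.94 ± 0.29, adjusted p = 3.77e-05). SULTR2;1, a sulfate transporter, and SERAT2;1, of cysteine synthesis, fell by 0.68 and 1.13. Aliphatic glucosinolate genes had a median of 0.33, and 1 of 18 tested members rose and 0 fell: the sulfotransferase SOT18 was the one called, at adjusted p = 0.0452, lost in 8 of 16 alternatives, among them those without ZT6 replicate 2 (adjusted p = 0.146) and without ZT12 replicate 3 (adjusted p = 0.106). Under library-total scaling 6 members rose, and with the values as deposited 10. In the indole branch 2 of 13 tested members rose and 2 fell, beside 8.26% of all genes that rose and 10.7% that fell. Under library-total scaling the indole list held 6 rises and 2 falls. MYB51, a regulator, and CYP81F2 fell by 1.5 and 2.19, and MYB34 and UGT74B1 rose by 0.66 and 0.71. MYB34 was not called without ZT6 replicate 2 or ZT12 replicate 3 (adjusted p = 0.0799 and 0.0621).

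Nitrate genes gave 1 rise and 3 falls among 14 tested, beside 8.26% of all genes that rose and 10.7% that fell. Under library-total scaling the nitrate list held 3 rises and 1 fall, and without ZT6 replicate 2 it held 0 and 1. NIA1, a nitrate reductase, had 6718, 6613 and 4829.7 normalised reads at ZT6 and 1093, 1660 and 7044 at ZT12 (log2 fold change -1.36 ± 0.45, adjusted p = 0.0406), with ZT12 replicate 3 above every ZT6 library and the call lost in 11 of 16 alternatives. Its change was -2.15 without that library, and without ZT6 replicate 2 the adjusted p was 0.12. NRT1.7, a transporter that reloads nitrate from old leaves, had 831, 714 and 691 normalised reads at ZT6 and 1194, 1350.4 and 4128 at ZT12, and its rise was not called without that library or without ZT6 replicate 2 (adjusted p = 0.126 and 0.0664). BT1, a scaffold protein gene that sugar and nitrate affect, fell by 1.3, and the other 4 BT genes did not pass. The BT1 call was lost without ZT12 replicate 1 and in the fit of only the 6 jaz4-1 libraries. In the iron list 2 of 19 tested members rose and 2 fell, which is close to the shares of all genes (8.26% and 10.7%). FER3, a ferritin, had 1018, 1174 and 1017 normalised reads at ZT6 and 2163, 2132 and 2029 at ZT12 (log2 fold change 0.98 ± 0.12, adjusted p = 3.38e-06). bHLH100, a regulator induced by iron shortage, had 1 read at ZT6 and 176 at ZT12, a depth-scaled ratio of 125-fold (95% counting interval 22.2 to 4983). Its call was lost in 8 of 16 alternatives, among them edgeR and each loss of 1 library other than ZT6 replicate 3 (adjusted p = 0.0914 without ZT6 replicate 2 and 0.0696 without ZT12 replicate 3). NAS3, a nicotianamine synthase, fell by 2.35. FER4 fell by 0.34 (adjusted p = 0.0444), a change no larger than the shift of 0.36 between scalings: it was 0.022 under library-total scaling and was not called without ZT6 replicate 2 (adjusted p = 0.231).

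Heat-shock genes gave 4 rises and 1 fall among 9 tested. HSFA2, a heat-inducible heat-shock factor, had 10.8, 12.3 and 7.71 normalised reads at ZT6 and 89.7, 60.6 and 97.5 at ZT12 (log2 fold change 2.88 ± 0.67, adjusted p = 0.00314), and the chaperones HSP101 and HSP81-1 rose by 0.85 and 1.13, whereas the factor HSFB2A fell by 1.71. Of the abscisic acid list 0 of 15 tested members rose and 2 fell (under library-total scaling, 5 and 2): NCED3, which makes abscisic acid under drought, fell by 2.2 ± 0.41 (-2.89 without ZT12 replicate 3) and the phosphatase PP2CA by 1.65 ± 0.19. In the cold list 1 of 13 tested members rose and 2 fell, namely CBF2 and the galactinol synthase GOLS3 (-3.61). The GOLS3 call was lost without ZT12 replicate 1 (adjusted p = 0.0756). KIN2, a cold-induced gene, was the rise (0.76), not called without ZT6 replicate 2 (adjusted p = 0.193). Of the senescence genes 1 of 12 tested members rose and 2 fell. The counts of the heat-shock, abscisic acid, cold and senescence lists stand beside 8.26% of all genes that rose and 10.7% that fell. NYC1, a chlorophyll b reductase, had 2882, 2776 and 2481 normalised reads at ZT6 and 7867, 8427 and 7503 at ZT12 (log2 fold change 1.55 ± 0.14, adjusted p = 2.5e-08), and NAP, a NAC factor of leaf senescence, had 82.3, 79.5 and 67.4 at ZT6 and 0.838, 0.841 and 2.63 at ZT12 (log2 fold change -5.06 ± 0.61, adjusted p = 1.91e-06).

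Growth genes gave more falls than rises under the scaling used, as did all genes tested (10.7% fell and 8.26% rose). Of expansin and XTH wall genes 3 of 33 tested members rose and 11 fell, and of Aux/IAA and SAUR auxin-response genes 2 of 35 tested members rose and 6 fell. Scaled by library totals these counts became 8 and 5, and 5 and 3, so that the balance of both lists depended on the scaling. XTH6, a xyloglucan enzyme, had 4178, 4650.1 and 4076 normalised reads at ZT6 and 1539.9, 1525 and 1534 at ZT12 (log2 fold change -1.49 ± 0.22, adjusted p = 2.14e-05). IAA6 and IAA14, repressors of auxin response, fell by 3.78 and 1.76, and IAA28 rose by 1.35 ± 0.23. EXPA10, an expansin, had 425, 419 and 483 normalised reads at ZT6 and 1209, 1071 and 6590 at ZT12, with ZT12 replicate 3 far above the rest, and its change was 2.21 with that library and 1.36 without it.

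The other times of day place the afternoon in the cycle. Of the genes that rose, 921 of 1620 (56.9%) had their highest jaz4-1 group mean at ZT12, 389 at ZT18 and 310 at ZT0. Of the genes that fell, 1220 of 2097 (58.2%) had their highest mean at ZT6 and 856 at ZT0. These are descriptions, since the ZT6 and ZT12 means also chose the genes. TOC1, JMJD5 and COR27 were highest at ZT12 among the 4 times, with ZT18 means of 1182 ± 117, 1384 ± 116 and 263 ± 27.8 normalised reads (SD, n = 3). RVE2 had risen only part of the way by dusk: its mean was 3211 ± 159 at ZT12, 6665 ± 831 at ZT18 and 7361 ± 1340.1 at ZT0. The CCA1 mean was 16989.7 ± 3085 at ZT0 and 1073 ± 207 at ZT6, so that the afternoon held only the end of its decline. PRR9, LHCB2.3 and CIPK20 were highest at ZT6.

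**Figure D4:**
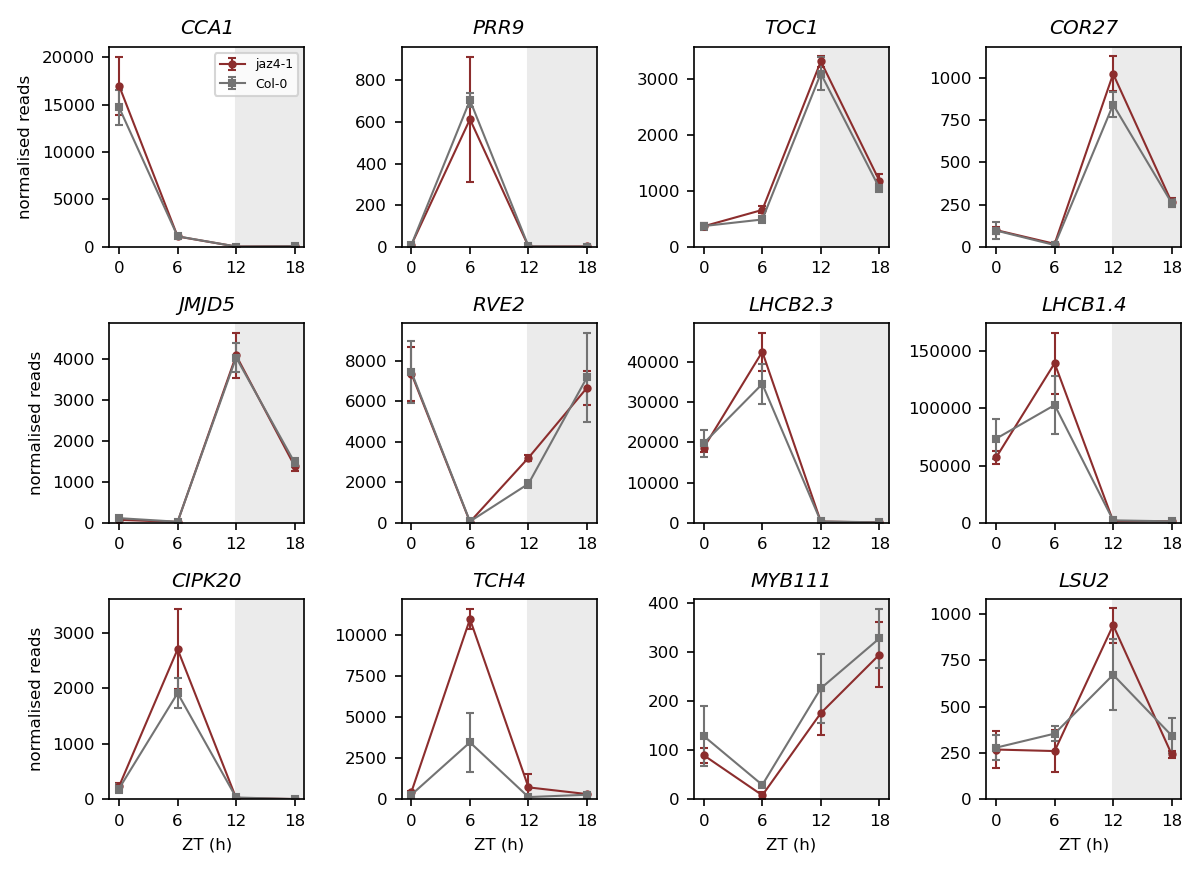
Each panel gives 1 gene as the mean of 3 libraries with SD bars, in normalised reads (vertical axis, a separate scale per gene), at ZT0, ZT6, ZT12 and ZT18 in jaz4-1 (red circles) and Col-0 (grey squares), with darkness shaded. TOC1, COR27 and JMJD5 were highest at ZT12, whereas PRR9, LHCB2.3, LHCB1.4, CIPK20 and TCH4 were highest at ZT6.

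Col-0 gives the same afternoon without the insertion. With its own 3 libraries at each time, Col-0 had 915 genes (4.67%) that rose and 1373 (7%) that fell in the same fit. In jaz4-1, 633 of its 1620 risers (39.1%) were also called higher in Col-0, which is 69.2% of the Col-0 risers. Of the 2097 that fell, 1150 (54.8%) also fell in Col-0, which is 83.8% of the Col-0 falls. Opposite calls were made for 1 gene, AT5G03350. Among the called jaz4-1 genes the Col-0 estimate had the same sign for 93.3% of risers and 95.7% of those that fell. Clock genes give examples of both values: TOC1 changed by 2.34 in jaz4-1 and 2.67 in Col-0, CCA1 by -6.58 and -6.58, and PRR9 by -8.38 and -8.58. Over all genes tested, called or not, the log2 fold changes of the lines correlated less closely, by 0.61 (Pearson) and 0.51 (Spearman).

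The difference between the lines' afternoon changes was tested itself, as an interaction term. It passed for 6 of 19614 genes (0.0306%), and 1398 genes (7.13%) had an unadjusted p under 0.05. AT5G03350, described in the deposited table as a lectin-like protein and named after its values were seen, had 1150.3, 1436 and 923 normalised reads at ZT6 and 409.9, 528 and 675 at ZT12 in jaz4-1, but 259, 334 and 555 and 772, 775 and 1107 in Col-0. It fell in jaz4-1 (-1.13) and rose in Col-0 (1.26; difference -2.38 ± 0.36, adjusted p = 0.0178). APR1 rose in jaz4-1 by 1.09 with a Col-0 estimate of -0.0034, from 2431, 3041 and 2369 to 2437, 2572 and 2775 in Col-0 (difference 1.09 ± 0.19, adjusted p = 0.0315).

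Cand1 (AT1G57680), a candidate G-protein-coupled receptor, had 3497, 3633 and 3739 at ZT6 and 1579, 1521 and 1528 at ZT12 in jaz4-1, against 1854, 2218 and 1820.5 and 1759, 1718 and 1495 in Col-0 (difference -0.99 ± 0.17, adjusted p = 0.0315). SLK2, a transcriptional co-regulator related to SEUSS, had a difference of -0.83 ± 0.15 (adjusted p = 0.0407). The last 2, AT1G12990 (a glycosyltransferase in the deposited table) and AT1G53430 (a probable receptor kinase there), also named after their values were seen, had differences of -1.12 and -0.99. In Cand1, SLK2, AT1G12990 and AT1G53430 the jaz4-1 ZT6 libraries lay above all Col-0 libraries of both times. No gene passed without jaz4-1 ZT6 replicate 2, without jaz4-1 ZT12 replicate 2 or without Col-0 ZT6 replicate 1, 1 passed without Col-0 ZT6 replicate 3, ZT12 replicate 1 or ZT12 replicate 2, 3 without Col-0 ZT6 replicate 2, and 29 without jaz4-1 ZT12 replicate 3. DESeq2 called 45 genes, and the 12 libraries of these 4 groups fitted alone gave 0.

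**Figure D5:**
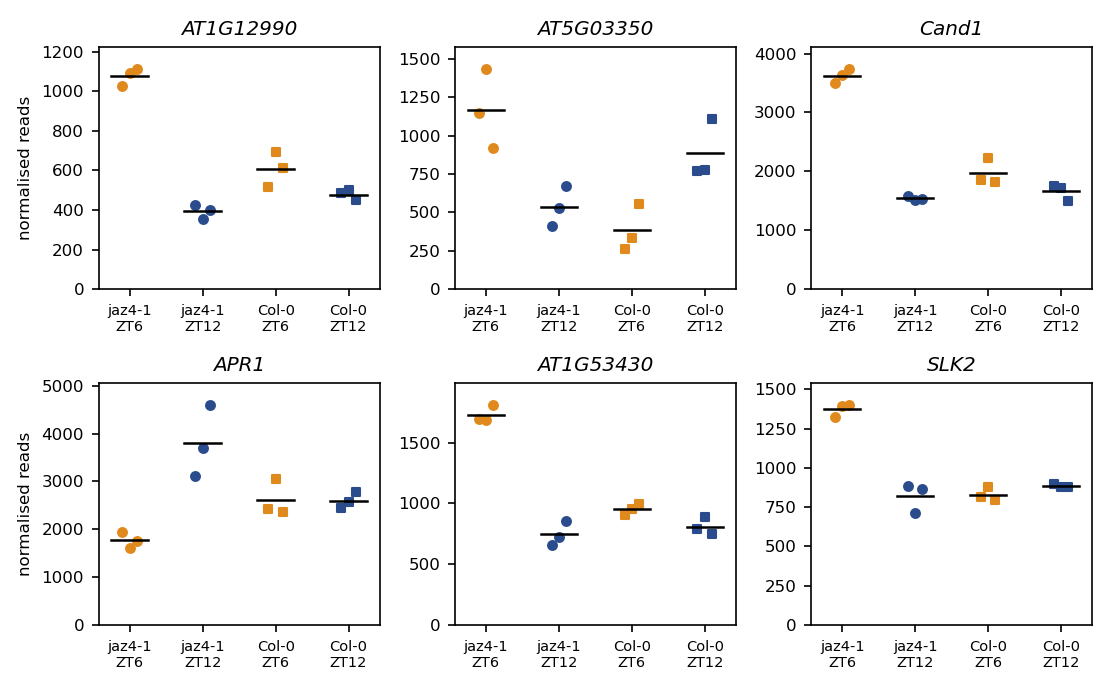
Each panel is 1 of the 6 genes whose afternoon change differed between the lines, with normalised reads of single libraries of jaz4-1 (circles) and Col-0 (squares) at ZT6 (orange) and ZT12 (blue) and a bar at the group mean. In 5 panels jaz4-1 starts high at ZT6 and falls, and in that of APR1 it starts low and rises, while Col-0 moves less or, for AT5G03350, the other way.

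Beyond those genes the lists can be set side by side, without a test of the difference. The sulfate list had a median of 0.50 with 4 rises and 2 falls in jaz4-1 and of -0.17 with 0 rises and 4 falls in Col-0. Per gene, the difference did not pass for APS3 (adjusted p = 0.201), APR3 (adjusted p = 0.608) or LSU2 (adjusted p = 0.627). The flavonoid list had 3 rises in Col-0 and a median of 0.47. Light-harvesting genes had 16 falls and 1 rise in each line, with medians of -2.68 and -2.47. Touch genes summed to 315, 548 and 888 CPM in Col-0 at ZT6, below each jaz4-1 ZT6 library, and to 101, 95.8 and 120.3 at ZT12.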

How the data were processed

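RNA of whole rosettes was read from both ends on NEBNext Ultra libraries, per the labels' protocols; strandedness is not stated there, so that reads of a gene and of its antisense or overlapping neighbour cannot be separated. HISAT2, featureCounts and TAIR10 are named in the submitters' processing notes, without versions. The deposited values are a signal: the file headers call them RPKM, but they were whole reads divided by 1 factor per library, which the values show to have been set within each time. Whole reads were recovered (100% of values within 0.001 reads of a whole number) and rescaled with median-of-ratios factors over all 24 libraries.

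Genes passed edgeR's expression filter (minimum count 10, minimum total 15). The test was limma 3.58.1 with a trend and robust variances on log2(normalised reads + 1) in 1 fit of all 8 groups (16 residual degrees of freedom), with Benjamini-Hochberg adjustment, and it was tested on simulated data. SE is limma's standard error, n = 3 per group. Alternatives used edgeR 4.0.16 and DESeq2 1.42.0 in R 4.3.3, other scalings, no filter, a pseudocount of 5, fewer libraries and a replicate block. P-values measure the spread between pooled samples. Names came from RefSeq, which held 24297 of the 24503 identifiers.

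Genes were named by rule: JAZ4, the 15 largest rises and 15 largest falls among called genes with a symbol, at least 1 CPM and no overlap of libraries, every clock list member, up to 4 called members of each other list and up to 10 genes with a called difference between lines. Of the promoters chosen by rule, 1 is not reported here. Other list members were named after their values were seen. The comparison and the 37 gene lists were chosen with earlier results of these data known.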

Additional observations from a re-analysis of the deposited data

Results flagged for a closer look

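The 6 genes below had afternoon changes that differed between jaz4-1 and Col-0 by the interaction test. The difference, jaz4-1 minus Col-0 on the log2 scale, was -2.38 for AT5G03350, -1.12 for AT1G12990, -0.988 for Cand1, -0.986 for AT1G53430, 1.09 for APR1 and -0.834 for SLK2. Each kept its sign in all 22 alternatives. The call was kept in 17 of 22 for AT5G03350, 13 for AT1G12990, 12 for APR1, 12 for Cand1, 10 for AT1G53430 and 6 for SLK2. All 6 lost it without jaz4-1 ZT6 replicate 2, without jaz4-1 ZT12 replicate 2 and without Col-0 ZT6 replicate 1. All 6 also lost it in the fit of 12 libraries alone and without both libraries with few genes. The libraries with few genes were jaz4-1 ZT6 replicate 2 (19151 genes) and Col-0 ZT0 replicate 2 (18959 genes).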

How the results depend on the processing

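The number of genes called in jaz4-1 rested on the scaling: 3717 became 8224 with the values as deposited (7050 higher, 1174 lower) and 7219 with library totals (6038 higher, 1181 lower), the last an alternative chosen after seeing the data. Col-0 went from 2288 to 6716 with the values as deposited. The other settings kept the jaz4-1 count within 1.5 times: edgeR on the recovered reads called 1553 higher and 2031 lower. Leaving out 1 jaz4-1 library gave 2743 to 4046 calls, 1064 to 1920 higher and 1625 to 2126 lower. The lowest count of risers was without ZT6 replicate 2. No called gene was called in the opposite direction in any of the 16 alternatives.

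The difference between lines gave 6 genes, 5 with edgeR, 45 with DESeq2, 12 with no filter, 0 with only the 12 libraries and 0 without both libraries with few genes. Leaving out 1 library gave 0 to 29. Of 145 named genes called, 115 were called in every alternative and 30 lost the call in some. Fitting only the 6 jaz4-1 libraries lost 21, leaving out ZT6 replicate 2 lost 13 and leaving out ZT12 replicate 1 lost 12. Among the 21 were PHI-1, DREB26, ACS11, PS2, XID, OPR3 and EXPA10. FER4 reversed, from -0.34 to 0.025 with the values as deposited and 0.022 with library totals.

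With a replicate block the counts were 1650 higher and 2114 lower in jaz4-1, 2320 in Col-0 and 7 for the difference. Deviations of same-numbered libraries at ZT6 and ZT12 correlated by 0.031, -0.053 and -0.065 in jaz4-1 and by 0.005, 0.012 and 0.059 in Col-0, and no pairing was used. The labels give only a replicate number, and so few correlations cannot show whether same-numbered libraries shared an origin. Genes with few reads were limited by depth: a gene at 0 reads in 3 libraries could hold up to 3 reads over them.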

Other observations

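The deposited table assigns a protein domain family to 7527 of the genes tested, of which 666 rose and 892 fell in jaz4-1. The families below have at least 40 tested members and were picked after their counts were seen, so they are given with no test. They were counted under the scaling used only, and the balance of rises and falls over all genes depended on it. TIR-domain genes, many of them immune receptors, had 26 falls and 0 rises among 78, with a median log2 fold change of -0.48. Sugar transporters had 15 falls and 4 rises among 54, and U-box genes, ubiquitin ligases, 11 and 2 among 43. Kinases of the largest family had 91 falls and 30 rises among 538. In the other direction, UDP-glycosyltransferases had 14 rises and 4 falls among 79, mitochondrial carriers 13 and 5 among 58, and HLH factors 19 and 14 among 86. Of 83 F-box genes 3 rose and 3 fell, and of 80 PPR genes 5 rose and 2 fell.

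ZT12 replicate 3 was also highest in genes of other lists that did not pass. SAG13, a senescence marker, had 18.9, 12.3 and 4.82 normalised reads at ZT6 and 2.51, 3.37 and 1432 at ZT12. DIN2, a glucosidase of starved leaves, had 0, 0 and 1.93 at ZT6 and 6.71, 1.68 and 525 at ZT12, RAB18, a drought and abscisic acid marker, 128, 93.2 and 91.5 at ZT6 and 21.8, 16.8 and 585 at ZT12, and NRT1.8, a nitrate transporter, 1.35, 28.8 and 41.4 at ZT6 and 5.87, 1.68 and 904 at ZT12. PR1, a salicylate marker, stayed low at 2.70, 0 and 0.963 at ZT6 and 3.35, 5.05 and 40.4 at ZT12. The labels give no treatment or other feature that sets this library apart.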
